A study of Mus musculus with 24 samples.

Results

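The sirtuins and the enzymes that supply or remove their cosubstrate were followed as 10 genes, Sirt1, Sirt2, Sirt3, Sirt4, Sirt5, Sirt6, Sirt7, Nampt, Nmrk1 and Nnmt, in RNA-seq of hepatocytes isolated from mouse liver. They were taken by gene symbol from a table of 55421 genes, and all 10 were among the 13583 genes with enough counts to test. The 24 mice were male and fell into 4 groups of 6. Young ND mice carried the substrain label C57BL/6N, were 6 months old by the labels and ate a normal diet that the labels name as a Teklad chow. Young HFD mice had the same age and substrain labels and ate a high-fat diet with 60% of its energy as fat for 9 weeks. Old ND and old HFD mice were labelled C57BL/6J and 24 months old and ate the same diets. Age and substrain therefore cannot be told apart in any comparison of old with young mice. Ages in the paper differ somewhat from the labels, and it names a different product as ND and no substrain. Hepatocytes, the metabolic cells of the liver, were released by collagenase perfusion, washed at low speed and purified on Percoll, and their polyA RNA was sequenced.

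Sirtuins remove acyl groups from proteins and use up NAD in every reaction, releasing nicotinamide. Nampt, the rate-limiting enzyme of NAD salvage, and Nmrk1, which phosphorylates nicotinamide riboside, feed nicotinamide and its riboside back towards NAD. Nnmt methylates nicotinamide with a methyl group from S-adenosylmethionine and so takes it out of the salvage route, and in liver it is known for its links to lipid and methyl donor metabolism. Sirt1, Sirt6 and Sirt7 are mainly nuclear, Sirt2 is mainly cytosolic, and Sirt3, Sirt4 and Sirt5 are mitochondrial.

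In the GENCODE annotation of GRCm38, the mm10 build, the 10 genes were protein-coding and lay on 8 autosomes. Nnmt spanned chr9:48591877-48605153 on the minus strand, Nampt chr12:32819545-32853349 on the plus strand and Nmrk1 chr19:18631950-18652428 on the plus strand. Sirt1 lay at chr10:63319005-63381704 and Sirt6 at chr10:81621785-81627797, both on the minus strand. Sirt2 (plus strand, chr7:28766735-28788661) and Sirt3 (minus strand, chr7:140863666-140882309) shared a chromosome. Sirt4 was at chr5:115478010-115484725 (minus strand), Sirt5 at chr13:43365496-43395203 (plus strand) and Sirt7 at chr11:120618372-120625240 (minus strand). Of the exon bases of Sirt3, 12.7% were also exons of Ric8a or Psmd13 on the opposite strand, so its counts could hold their reads or lose its own, since the counting is not stated to use strand. The share was 3.46% for Sirt7 (with Mafg or Mir6936, on the same strand), 1.22% for Sirt1, 0.834% for Sirt2 and 0 for the other 6.

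The promoters of Sirt1 and Nampt are shown because both genes are textbook links between NAD and the circadian clock. The RefSeq promoter table (GRCm38.p6) held 9 of the 10 genes and no entry for Nnmt. Each sequence covers up to 250 bases before the RefSeq start of transcription, without bases annotated as exon (the 15 bases next to the start of Sirt1). It is read 5′ to 3′ on the gene's own strand. Both RefSeq starts, chr10:63339035 for Sirt1 and chr12:32820335 for Nampt, lie inside the GENCODE spans given above. The stretches are therefore upstream of these starts but within the annotated genes. Capitals mark the E-box CACGTG, the letters that the clock factors Clock and Arntl are known to bind, which reads the same on both strands. The first is chr10:63339051-63339285 on the minus strand and the second chr12:32820085-32820334 on the plus strand.
Sirt1: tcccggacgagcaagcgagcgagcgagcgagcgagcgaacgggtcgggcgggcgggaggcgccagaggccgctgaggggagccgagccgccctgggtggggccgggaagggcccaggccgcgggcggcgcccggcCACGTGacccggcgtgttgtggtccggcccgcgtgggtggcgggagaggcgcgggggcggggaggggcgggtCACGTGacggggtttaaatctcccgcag
Nampt: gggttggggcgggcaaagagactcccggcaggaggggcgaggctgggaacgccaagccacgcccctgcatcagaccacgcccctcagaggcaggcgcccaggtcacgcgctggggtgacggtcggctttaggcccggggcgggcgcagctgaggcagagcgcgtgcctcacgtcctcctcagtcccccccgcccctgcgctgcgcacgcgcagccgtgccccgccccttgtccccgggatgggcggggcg
In Sirt1 the E-box began 115 and 43 bases before the start, and the other 8 genes did not hold these letters in the window. Of all 32851 promoters of 250 bases, 6.02% held the E-box. The other motifs searched on both strands were TTCNNNGAA, found in 7.02% of promoters and among these genes in Sirt7, 91 bases before its start, and TATAAA (12.4%), in none of the 9. An interferon element (2.98% of promoters) and a direct repeat of the nuclear receptor half-site (0.0335%), searched as fixed letters, were in none of them either. The search covered whole windows, exon bases included. For Sirt7, 226 of the 250 bases searched, the match among them, lay from the first annotated exon base on. So did all 250 for Sirt4 and for a window each of Sirt3 and Sirt6. A match is a run of letters and not evidence of binding.

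Total counts per mouse ran from 9200332 to 22185069, and all 6 old HFD totals (9200332 to 13517632) were below those of the other 18 mice. By the titles there were 2 batches, each holding 3 mice of every group but old ND, which had 2 and 4. The hepatocyte markers Alb, Apoa1, Ttr, Hnf4a, Asgr1 and Tat together held 37419 to 146333 CPM (read counts relative to library size, with trimmed-mean scaling). The summed level of 6 Kupffer cell markers (Adgre1, Cd5l, Clec4f, Csf1r, Timd4, Vsig4) was 1.28 to 59.8 CPM for young ND, 9.83 to 156 CPM for young HFD, 30.5 to 940.1 CPM for old ND and 48.9 to 480.2 CPM for old HFD. That of 6 stellate cell markers was 5.63 to 64.8, 16 to 188, 73.8 to 389.6 and 24.0 to 306 CPM in the same order. The young ND sums divided by batch. Kupffer sums were 1.28 to 3.18 CPM in batch 1 and 32.5 to 59.8 CPM in batch 2. Sinusoidal endothelial sums were 10.6 to 26.7 and 76.1 to 122 CPM, and stellate sums 5.63 to 14.3 and 43.5 to 64.8 CPM. No hepatocyte, Kupffer, sinusoidal endothelial or stellate marker was at 0 in every mouse of a group. The library labelled old ND replicate 4 stood apart, with the lowest hepatocyte sum of the 24 mice (37419 CPM) and the highest Kupffer, sinusoidal endothelial and stellate sums (940.1, 609 and 389.6 CPM). Old ND replicate 3 came next for Kupffer markers, with 544 CPM, while the rest of old ND had at most 71.8 CPM. Its sinusoidal endothelial and stellate sums ranked 6th and 5th (162 and 175 CPM). Old HFD replicates 4 and 6, both of batch 2, also stood apart from their group. Their sums were 355 and 480.2 CPM for Kupffer, 339 and 499 CPM for sinusoidal endothelial and 306 and 284 CPM for stellate cell markers, while the other 4 old HFD mice had at most 100.3, 117 and 65.8 CPM. Most counts of calls that rest on old HFD mice are given with and without them. In RNA of a whole preparation, fewer cells of a type and less RNA per cell cannot be told apart. Nnt, the gene known to differ between these substrains, has overlapping entries in the table, so it was not used to check the labels.

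The order of the levels was taken as CPM per kilobase of exon, because the FPKM values of the authors follow the length of the whole gene with its introns. Of 7312 genes with at least 10 CPM, 95.7% had a length implied by their FPKM within 20% of the gene span and 4.83% within 20% of the exon length. In young ND, Nnmt had the highest level per exon length with a median of 36.5 CPM per kilobase (33.7 to 48.8). Nampt (10.3) and Sirt3 (10.2) followed, then Sirt2 (8.25), Sirt7 (7.48), Nmrk1 (3.75), Sirt4 (2.87), Sirt1 (2.29), Sirt5 (2.00) and Sirt6 (0.549), all as medians of the 6 mice. The ranges of neighbours in this order did not overlap between Nnmt and Nampt (a ratio of medians of 3.54), Sirt3 and Sirt2 (1.24), Sirt7 and Nmrk1 (2.00), and Sirt5 and Sirt6 (3.65). For the other 5 neighbouring pairs the mice overlapped. On the deposited FPKM scale the order in young ND was instead Sirt7, Nnmt, Sirt3, Sirt2, Nampt, Sirt4, Nmrk1, Sirt5, Sirt6 and Sirt1. Of the mitochondrial sirtuins, Sirt3, the main deacetylase of that compartment, had the highest level per exon length.

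**Figure D1:**
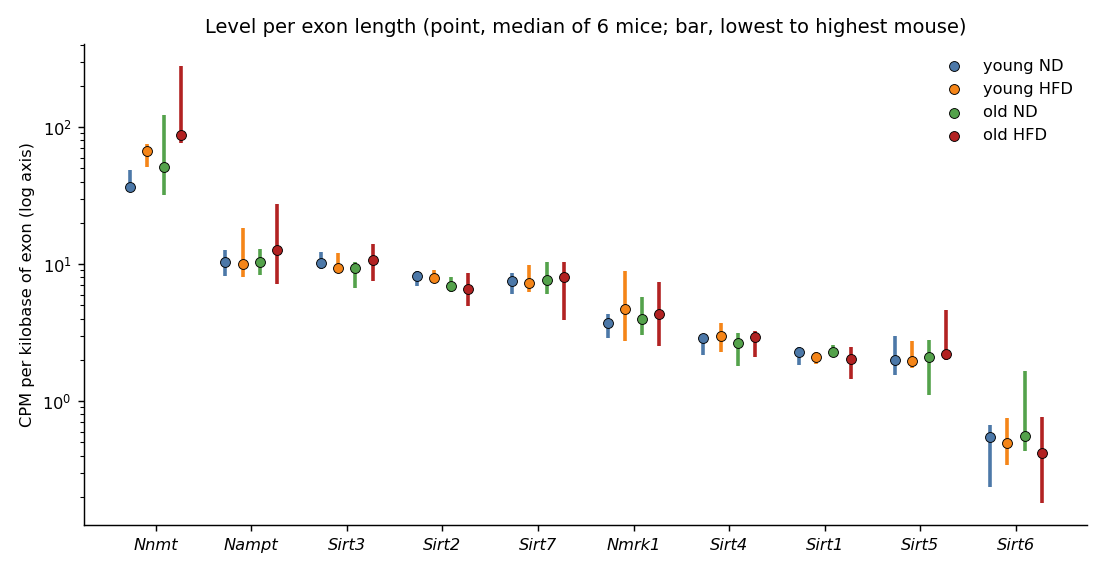
Level of the 10 genes in CPM per kilobase of exon (log axis), ordered by the young ND median, with the median of 6 mice as a point and the lowest to highest mouse as a bar in each of the 4 groups. The Nnmt median is 36.5 for young ND and 87.8 for old HFD, and the Sirt6 medians are 0.549 and 0.416.

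Nnmt was the only member called in any of the 6 comparisons. In CPM its lowest, median and highest values were 53.1, 57.6 and 76.9 in young ND and 81.1, 105 and 119.7 in young HFD. For old ND they were 50.7, 81.3 and 192, and for old HFD 121, 139 and 443. Every old HFD mouse was above every young mouse on either diet, every young HFD mouse was above every young ND mouse, and old ND overlapped the other groups. Nnmt rose in old HFD against young ND by a log2 fold change of 1.56 (SE 0.30), a 2.95-fold difference with an adjusted p of 0.000967 (edgeR quasi-likelihood test, Benjamini-Hochberg adjustment over all genes). The highest old HFD value belonged to replicate 2, and the next mouse had 157 CPM. Without that mouse the log2 fold change was 1.13 and the adjusted p 0.00168. Batch 1 alone gave 1.96 (adjusted p 0.0116) and batch 2 alone 1.02, where the call was lost (adjusted p 0.0852). Without old HFD replicates 4 and 6 it was 1.78 (adjusted p 0.0020).

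The remaining contrasts of Nnmt had the same sign without passing the test. Against young ND the log2 fold change of young HFD was 0.71 (SE 0.30, adjusted p 0.158) with groups that did not overlap, and without old HFD replicate 2, which entered the shared estimate of the spread, the adjusted p was 0.0488. Old HFD against old ND gave 0.94 (SE 0.31, adjusted p 0.0799). In that contrast the value was 1.31 and called (adjusted p 0.0101) without old ND replicate 4, and 0.56 (adjusted p 0.207) without old HFD replicate 2. It was 1.69 in batch 1 and 0.32 in batch 2, and 1.22 and called (adjusted p 0.0468) without old HFD replicates 4 and 6. That old ND mouse had the 192 CPM of its group and the non-hepatocyte marker sums given above. Old ND against young ND gave 0.62 (SE 0.30, adjusted p 0.225), and 0.27 without old ND replicate 4. Old HFD against young HFD gave 0.85 (SE 0.30, adjusted p 0.117) with no overlap, and 0.41 (adjusted p 0.386) without old HFD replicate 2. Within batches this last value was 1.2 in batch 1 and 0.33 in batch 2.

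Beside the higher Nnmt of old HFD mice, markers of other cells were also higher. Against young ND, 5 of 6 Kupffer cell, 6 of 6 sinusoidal endothelial and 4 of 6 stellate cell markers passed the test, all higher in old HFD. So did 4 of 4 tested T and NK cell markers (median log2 fold change 4.44) and the 1 tested B cell marker (2.22), while 0 of 1 tested cholangiocyte markers did, and 2 of 6 hepatocyte markers passed in each direction. With old HFD replicates 4 and 6 left out, 4 of 6 Kupffer cell, 1 of 6 endothelial, 3 of 6 stellate cell and 2 of 4 T and NK cell markers passed, all higher. Of the hepatocyte markers 1 of 6 then passed, lower in old HFD, and 0 of 1 B cell markers did. The part of these cells in the Nnmt result was not tested. The mouse with the highest Nnmt, old HFD replicate 2, ranked 16th, 22nd and 20th of the 24 mice for the Kupffer, endothelial and stellate sums (48.9, 23.1 and 24.0 CPM), and 4th and 3rd for the T and NK cell and the cholangiocyte sums (7.53 and 12.3 CPM). Of all genes, 2.99% had every old HFD mouse above every young ND mouse, 1.77% every young HFD mouse above every young ND mouse, and 0.552% every old HFD mouse above every young HFD mouse.

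**Figure D2:**
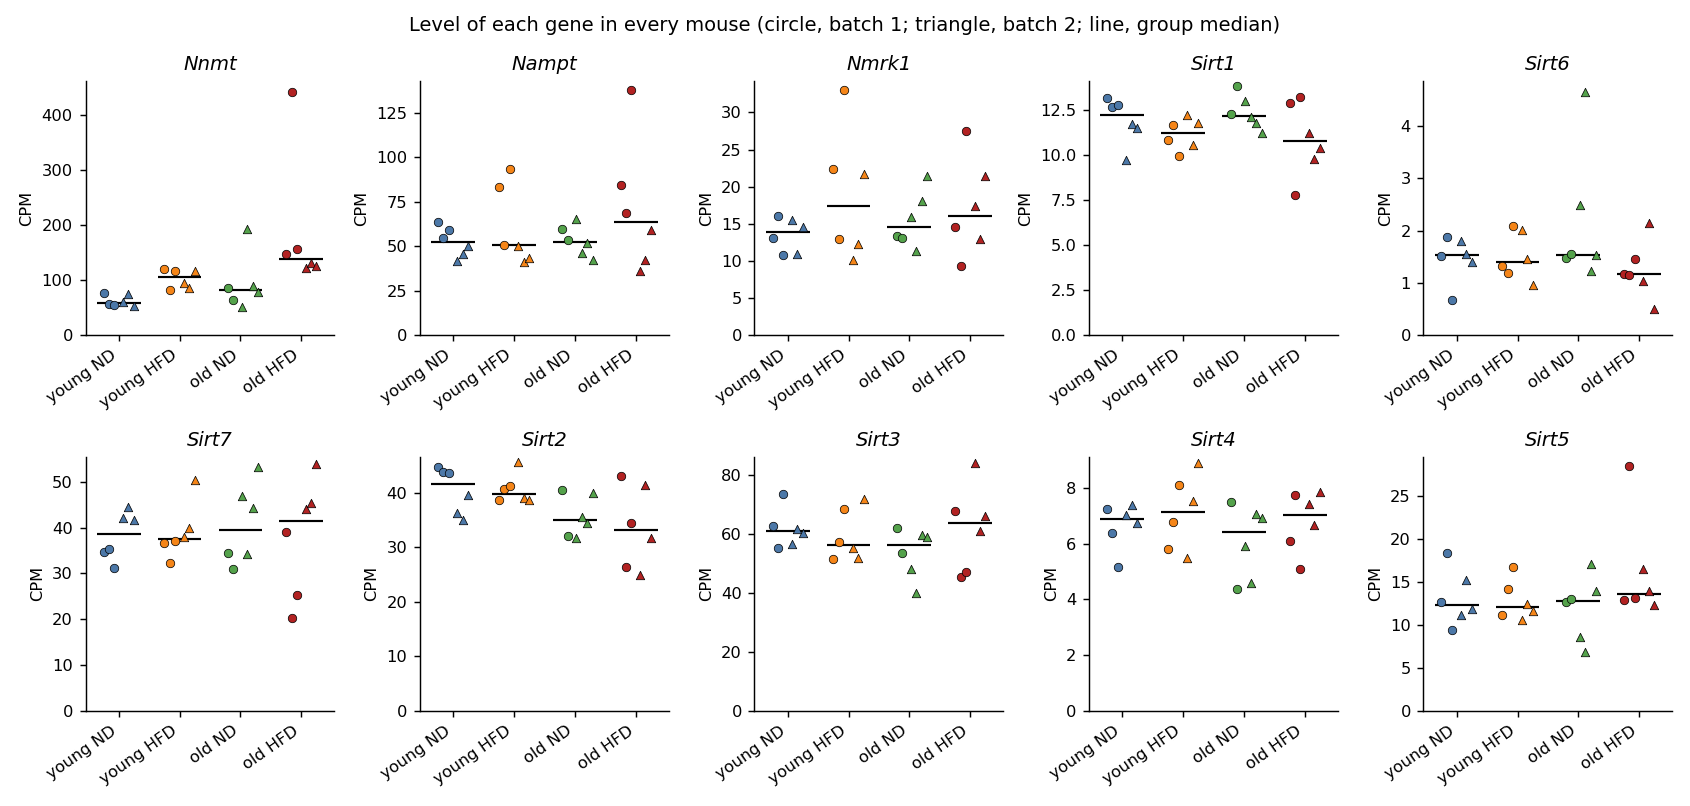
CPM of each of the 10 genes in every mouse, by group, with batch 1 as circles, batch 2 as triangles and the group median as a line. For Nnmt the 6 old HFD mice (121 to 443 CPM) lie above all 12 young mice (53.1 to 119.7 CPM), whereas for the 7 sirtuins all 4 groups overlap.

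The genes that return nicotinamide and its riboside to NAD showed no called difference. Nampt had a lowest, median and highest level of 41.7, 52.3 and 63.7 CPM (young ND), 41.0, 50.5 and 93.2 (young HFD), 42.5, 52.4 and 65.5 (old ND), and 36.1, 63.8 and 138 (old HFD). All groups overlapped, and the spread was widest on HFD, where the 2 highest young and the 3 highest old mice were of batch 1. Its log2 fold change in old HFD against young ND was 0.37 (95% interval -0.02 to 0.76, adjusted p 0.138), with 0.69 in batch 1, 0.0039 in batch 2 and 0.19 without old HFD replicate 3. In young HFD against young ND it was 0.16, in old HFD against old ND 0.23, in old ND against young ND 0.14 and in old HFD against young HFD 0.21. With 1 mouse left out at a time these ranged from 0.067 to 0.24, 0.063 to 0.37, 0.020 to 0.23 and -0.0086 to 0.31, with the lowest value without replicate 3 of young HFD, old HFD, old ND and old HFD.

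Nmrk1 was likewise spread most widely on HFD. Its lowest, median and highest levels were 10.7, 13.8 and 16 CPM (young ND), 10.1, 17.3 and 33.1 (young HFD), 11.3, 14.6 and 21.4 (old ND), and 9.30, 16 and 27.5 (old HFD). The log2 fold change was 0.47 in young HFD against young ND (interval -0.07 to 1.0, adjusted p 0.314) and 0.35 in old HFD against young ND (interval -0.19 to 0.89, adjusted p 0.317). Both intervals include 0. The first was 0.77 in batch 1, 0.13 in batch 2 and 0.23 without young HFD replicate 3, and the second was 0.19 without old HFD replicate 3.

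Among the nuclear sirtuins, Sirt1, the deacetylase of many metabolic transcription factors, varied little between mice. Its lowest, median and highest levels were 9.74, 12.2 and 13.1 CPM (young ND), 9.93, 11.2 and 12.2 (young HFD), 11.2, 12.2 and 13.8 (old ND), and 7.76, 10.8 and 13.2 (old HFD). The groups overlapped, and the lowest of the 24 mice was old HFD replicate 2. Old HFD against old ND gave a log2 fold change of -0.20 (interval -0.45 to 0.05, adjusted p 0.333) and -0.12 without old HFD replicate 2, and the other 4 contrasts lay between -0.13 and 0.07. The 5 intervals together ran from -0.45 to 0.31 on the log2 scale.

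Sirt7, a nucleolar deacylase linked to ribosomal RNA synthesis, had 31.3, 38.5 and 44.6 CPM as its lowest, median and highest in young ND. Young HFD had 32.4, 37.5 and 50.4, old ND 31.0, 39.4 and 53.2, and old HFD 20.3, 41.5 and 53.8 CPM. The groups overlapped, and the 5 log2 fold changes lay between -0.08 and 0.03. In each group the batch 2 mice were above the batch 1 mice, except for old ND replicate 4. Among old HFD mice, batch 1 had 39.0, 20.3 and 25.4 CPM and batch 2 44.1, 45.3 and 53.8 CPM. Old HFD against young ND was -0.29 in batch 1 and 0.16 in batch 2.

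Sirt6, a chromatin deacylase known for restraining glycolytic and lipid genes, had few reads, from 7 to 57 per mouse. Its lowest, median and highest were 0.663, 1.53 and 1.88 CPM (young ND), 0.949, 1.39 and 2.09 (young HFD), 1.22, 1.54 and 4.66 (old ND), and 0.504, 1.16 and 2.15 (old HFD). The highest value was that of old ND replicate 4, the library with the lowest hepatocyte sum. Sirt6 gave the widest intervals of the sirtuins, such as -1.54 to 0.03 around -0.75 in old HFD against old ND (adjusted p 0.247) and -0.26 to 1.27 around 0.51 in old ND against young ND (adjusted p 0.454). The groups overlapped. Without old ND replicate 4 these values were -0.40 and 0.18.

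The cytosolic Sirt2, a deacetylase of tubulin and of metabolic enzymes, had the smallest adjusted p of the sirtuins. In CPM its lowest, median and highest values were 34.9, 41.6 and 44.6 (young ND), 38.6, 39.8 and 45.5 (young HFD), 31.7, 35 and 40.5 (old ND), and 25, 33.1 and 43.1 (old HFD). The old groups had the lower medians, and all groups overlapped. The log2 fold change was -0.26 (SE 0.12, adjusted p 0.0943) in old HFD against young ND and -0.27 (SE 0.12, adjusted p 0.192) in old HFD against young HFD. The first of these was called without either of 2 mice, at -0.35 (adjusted p 0.0329) without old HFD replicate 1 and -0.31 (adjusted p 0.0390) without old HFD replicate 5, and was -0.17 and not called without old HFD replicate 4. It had the same sign in batch 1 (-0.37) and batch 2 (-0.17).

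In the mitochondria, Sirt3 had 55.3, 61.2 and 73.5 CPM (young ND), 51.6, 56.3 and 72.1 (young HFD), 40.1, 56.4 and 61.9 (old ND), and 45.4, 63.7 and 84.1 (old HFD) as its lowest, median and highest. All groups overlapped, and its log2 fold changes lay between -0.21 and 0.21. Between old HFD and young ND the value was -0.28 in batch 1 and 0.25 in batch 2.

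Sirt4, a lipoamidase and ADP-ribosyltransferase that restrains glutamate and fatty acid use, was low and even. Group medians were 6.89 (young ND), 7.15 (young HFD), 6.42 (old ND) and 7.04 CPM (old HFD), and single mice ran from 4.37 to 8.90 CPM. Its log2 fold changes lay between -0.16 and 0.19, with overlap in each contrast.

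Sirt5, which removes succinyl, malonyl and glutaryl groups, had group medians of 12.2, 12, 12.8 and 13.5 CPM in the same order. Values ran from 9.41 to 18.3 CPM (young ND), 10.6 to 16.6 (young HFD), 6.78 to 17.1 (old ND) and 12.2 to 28.4 (old HFD). The highest value was that of old HFD replicate 2, and the lowest that of old ND replicate 4. Old HFD against old ND gave 0.39 (interval -0.06 to 0.84, adjusted p 0.298), and old HFD against young HFD gave 0.34 (adjusted p 0.367). Without old HFD replicate 2 they were 0.19 and 0.12.

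**Figure D3:**
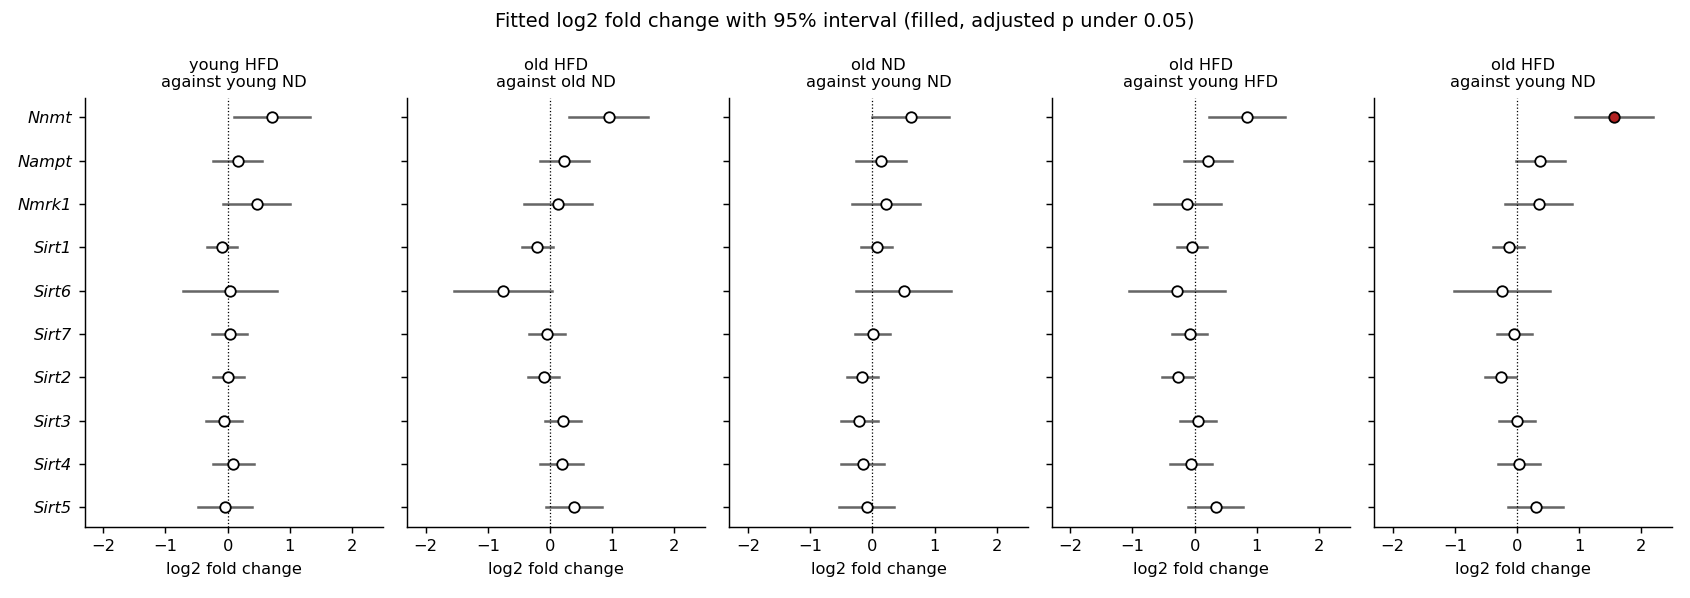
Log2 fold change of each gene from the fit of all genes, with its 95% interval, in the 5 pairwise comparisons. Nnmt in old HFD against young ND (1.56) is the single filled point with an adjusted p under 0.05, and the points of the sirtuins other than Sirt6 lie between -0.27 and 0.39.

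Counted together, 0 of the 35 sirtuin values (7 genes in 5 contrasts) passed the test, and 2 had an unadjusted p under 0.05, both of Sirt2. Leaving aside Sirt6, the 30 values lay between -0.27 and 0.39 and their intervals between -0.54 and 0.84. Of the 10 members, 0 were called in young HFD against young ND, where 3.5% of all genes were called, 0 in old HFD against old ND (3.01%), 0 in old ND against young ND (8.5%) and 0 in old HFD against young HFD (2.24%). In these 4 contrasts the count at an unadjusted p under 0.05 was 1, 1, 1 and 2, DESeq2 called 0, 1, 0 and 1, and limma on log2(FPKM + 1) called 0 in each. Old HFD against young ND called 1 of 10, beside 30.2% of all genes, and 1 without old HFD replicates 4 and 6. The median log2 fold change of the 10 members there was 0.02, beside 0.04 over all genes.

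The question of whether age alters the response to HFD was put to the difference of the diet effects, old minus young. For the 10 members it ran from -0.79 (Sirt6) to 0.43 (Sirt5) on the log2 scale, with adjusted p from 0.645 to 0.954. With 1 mouse left out at a time, the Sirt6 value ranged from -1.03 to -0.47 and the Sirt5 value from 0.23 to 0.57. For Nnmt the difference was 0.23 (interval -0.64 to 1.10, adjusted p 0.897), and its sign turned without old HFD replicate 2 (-0.16) and in batch 2 alone (-0.37), while batch 1 alone gave 0.93. edgeR called 0 of the 13583 genes (0%) in this contrast, with 1247 at an unadjusted p under 0.05, DESeq2 called 4 genes, and edgeR without the count filter called 587. None of the members had an unadjusted p under 0.05 there by edgeR, and DESeq2 called 0 of them.

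The other genes of NAD metabolism were read from 10 lists of 91 genes, of which 84 had enough counts to test. Old HFD against young ND called 31 of the 84, 14 higher and 17 lower in old HFD, beside 17.3% and 12.9% of all genes. The count was 14 in batch 1 alone, 1 in batch 2 alone and 19 without young ND replicate 4. It was 15 without old HFD replicates 4 and 6, of which 14 were among the 31, and all 31 kept their sign there. The shares of all genes belong to the fit of 24 mice and not to these other fits. The median log2 fold change of all 84 in the fit of 24 mice was -0.06, beside 0.04 over all genes. The other contrasts called 5 (young HFD against young ND), 2 (old HFD against old ND), 7 (old ND against young ND) and 0 (old HFD against young HFD) of the 84. Of all genes, 3.5%, 3.01%, 8.5% and 2.24% were called in the same order. Without old HFD replicates 4 and 6 the counts of the 84 were 7, 6, 20 and 0. In the last contrast, 16 had an unadjusted p under 0.05, DESeq2 called 4 and limma 0. Several of these calls depended on the setting. For old ND against young ND, limma on log2(FPKM + 1) and batch 2 alone called 0 of the 84, so the calls of Afmid, Ido2, Parp14, Aox3 and Cry1 in that contrast were lost there. Batch 1 alone called 1, which was not among the 7, so these calls were lost there too. For old HFD against old ND, 0 were called with no batch term, with only the mice compared, with limma and in either batch alone, so the calls of Aox1 and Bhmt were lost there. For young HFD against young ND, limma called 1, batch 2 alone 0 and batch 1 alone 3, of which 1 (Cry1) was among the 5. Without old HFD replicates 4 and 6, the calls of Ido2, Acmsd, Nudt13, Nadk2, Cbs and Foxo1 in old HFD against young ND and of Aox1 in old HFD against old ND were lost. The log2 fold change went from -0.63 to -0.58 for Acmsd, -0.48 to -0.40 for Ido2, 0.59 to 0.45 for Nudt13, -0.45 to -0.33 for Cbs, 0.37 to 0.26 for Foxo1, -0.46 to -0.25 for Nadk2 and -0.73 to -0.52 for Aox1, with fewer mice in each fit. Leaving out 1 mouse at a time, the call was lost in 16 of 24 fits for Aox1 between the old groups and for Ido2 in old ND, in 15 for Foxo1, in 12 for Aox1 in young HFD, in 9 for Clock and 8 for Arntl in young HFD, in 8 for Afmid in old ND, in 5 each for Nadk2, Bhmt, Nt5e and Cry1 in young HFD, and in 2 for Acmsd. The contrasts share groups of mice, so their calls are not separate evidence.

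**Figure D4:**
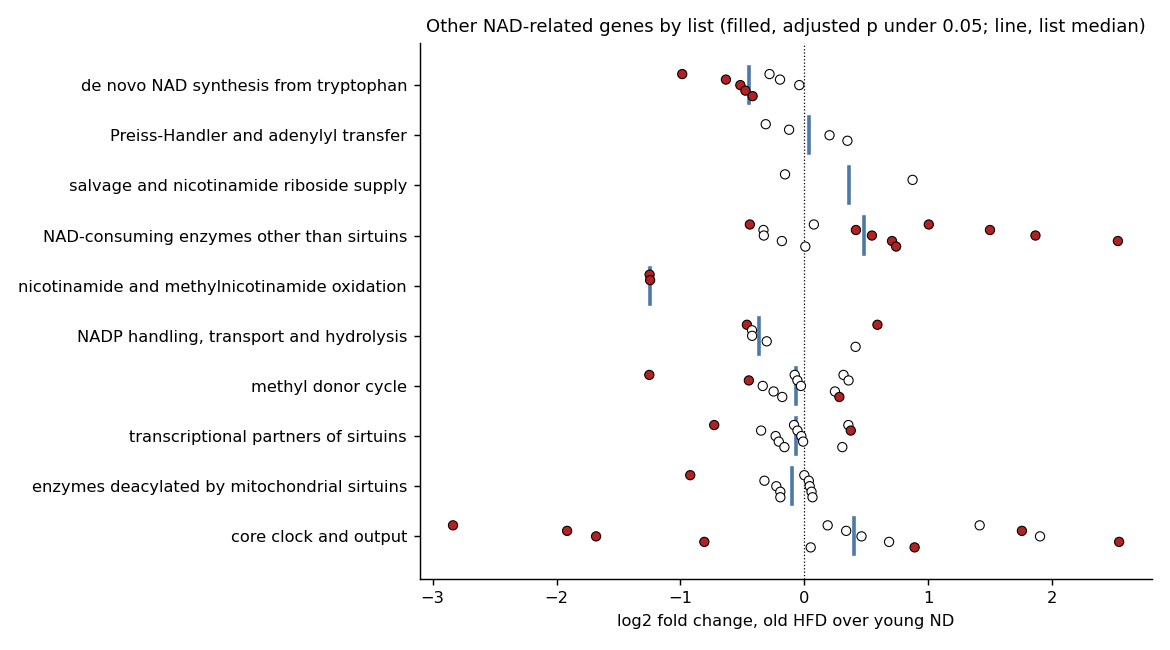
Log2 fold change of old HFD over young ND for the tested genes of the 10 NAD-related lists, with genes of an adjusted p under 0.05 filled and the list median as a line. The tested genes of de novo synthesis all lie below 0, and 8 of the 9 called NAD-consuming enzymes lie above 0.

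Of 8 tested genes of the tryptophan (kynurenine) route to NAD, 5 fell in old HFD against young ND, beside 12.9% of all genes. Of the 8, 0 rose and all had a value below 0, with a list median of -0.45. Markers of other cells rose in the same contrast, and their part was not tested. The 5 include Acmsd, which leads away from NAD, and 4 of the other 7 fell. Without old HFD replicates 4 and 6, 1 of the 8 (Afmid, by 0.80) fell and the list median was -0.30. Afmid, the formamidase that makes kynurenine, had 46.8, 54 and 76.7 CPM as lowest, median and highest (young ND), 29.5, 34.8 and 42.2 (young HFD), 10.5, 37.2 and 42.9 (old ND), and 14.8, 28.1 and 46.1 (old HFD). Every mouse of the other 3 groups was below every young ND mouse, as held for 3.06%, 1.72% and 4.27% of all genes for young HFD, old ND and old HFD taken singly. Afmid fell by 0.99 (SE 0.24, adjusted p 0.00449) in old HFD and by 0.79 (SE 0.24, adjusted p 0.0399) in old ND, each against young ND.

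Ido2, a liver dioxygenase of tryptophan, fell by 0.48 (adjusted p 0.0116) in old HFD against young ND and by 0.44 (adjusted p 0.0453) in old ND against young ND. Its median was 92.6 (young ND), 85.7 (young HFD), 75 (old ND) and 67.0 CPM (old HFD), and every old ND mouse was below every young ND mouse. Acmsd, which diverts an intermediate away from NAD, fell by 0.63 (adjusted p 0.0229) in old HFD against young ND, with medians of 23.4, 13, 18.3 and 12.5 CPM in the order of the groups. The lowest Afmid and Ido2 of old ND were those of replicate 4, the library with the lowest hepatocyte sum. Without that mouse the old ND values were -0.61 for Afmid (adjusted p 0.0691) and -0.34 for Ido2 (adjusted p 0.135), and both calls were lost.

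Of the other routes to NAD, the list of nicotinate use and adenylyl transfer had 0 of 4 genes called, with 1 at an unadjusted p under 0.05. DESeq2 was counted over the lists together. Nmnat1, the nuclear enzyme that completes NAD, had the smallest adjusted p, at -0.31 (adjusted p 0.0898) in old HFD against young ND. Nt5e, a cell-surface nucleotidase that yields nicotinamide riboside, rose by 1.5 (SE 0.37, adjusted p 0.0267) in young HFD against young ND. Its levels were 4.6 to 9.08 CPM (median 6.88) in young ND and 8.46 to 60.6 CPM (median 10.8) in young HFD, so the groups overlapped, and the mouse next to the highest had 18.7 CPM. Without the highest, young HFD replicate 2, the value was 0.92 and the call was lost (adjusted p 0.0876).

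Of 14 tested NAD-consuming enzymes other than the sirtuins, 8 rose and 1 fell in the old HFD mice compared with young ND. Of all genes, 17.3% rose and 12.9% fell there. The list median was 0.48. Without old HFD replicates 4 and 6, 4 rose and 0 fell. Parp14, a mono-ADP-ribosyltransferase induced by interferon, had 18.3, 20.7 and 29.1 CPM (young ND), 23.8, 27.5 and 36.7 (young HFD), 22, 40.2 and 58.5 (old ND), and 34.4, 43.7 and 53.8 (old HFD) as lowest, median and highest. Every old HFD mouse was above every young ND mouse. It rose by 1.0 (SE 0.20, adjusted p 0.00117) in old HFD and by 0.90 (SE 0.20, adjusted p 0.00775) in old ND, each against young ND. The highest old ND levels were those of replicates 3 (58.5) and 4 (53.1), the mice with the highest Kupffer sums of all. Without replicate 3 the old ND value was 0.74 (adjusted p 0.0234).

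Parp12, of the same family, rose by 0.71 (SE 0.15, adjusted p 0.00173) in old HFD against young ND, with medians of 26.7 and 43.7 CPM and some overlap. Within batches the value was 0.94 in batch 1 and 0.42 in batch 2. Parp11 rose by 1.5 (SE 0.32, adjusted p 0.00185), from a median of 3.17 to 9.88 CPM. The highest old HFD levels were those of replicates 4 (13.4), 2 (11.5) and 6 (11.3), and the other 3 mice had 3.22 to 8.45 CPM. Without replicates 4 and 6 the log2 fold change was 1.06 (adjusted p 0.0375). In old ND against young ND, 3 of the 14 rose (Parp14, Cd38 and Parp8), beside 7.26% of all genes. Without old ND replicate 4, the library with the lowest hepatocyte sum, the calls of Cd38 and Parp8 were lost. Their log2 fold changes went from 1.82 to 1.46 and from 3.16 to 2.41. The Parp14 call was kept whichever mouse was left out. Immune cells also express genes of this list, and the Kupffer cell markers rose in both contrasts (5 of 6 and 6 of 6), and the part of those cells was not tested.

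Both aldehyde oxidases, which oxidise methylnicotinamide, the product of Nnmt, fell in the old HFD mice. Aox1 had a lowest, median and highest level of 139, 161 and 216 CPM (young ND), 80.8, 102 and 115 (young HFD), 50.9, 123 and 143 (old ND), and 38.7, 70.8 and 123 (old HFD). Both HFD groups lay wholly below young ND. Aox1 fell by 1.25 (SE 0.20, adjusted p 0.000215) in old HFD against young ND, by 0.74 (adjusted p 0.0395) in young HFD against young ND and by 0.73 (adjusted p 0.0442) in old HFD against old ND. When replicate numbers were fitted as blocks and batch was left out, the young and the old diet contrasts were not called (adjusted p 0.0655 and 0.0690).

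Aox3, the more abundant of the pair in counts, ran from 763 to 1440 CPM (median 1046.5, young ND), 465 to 905 (728, young HFD), 216 to 763 (480.1, old ND) and 242 to 673 (394, old HFD). It fell by 1.25 (SE 0.26, adjusted p 0.00167) in old HFD against young ND and by 1.05 (SE 0.26, adjusted p 0.0138) in old ND against young ND. The young ND mice divided by batch, with 1268 to 1440 CPM in batch 1 and 763 to 825 CPM in batch 2. The fold change in old HFD was -1.54 in batch 1 and -0.97 in batch 2.

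**Figure D5:**
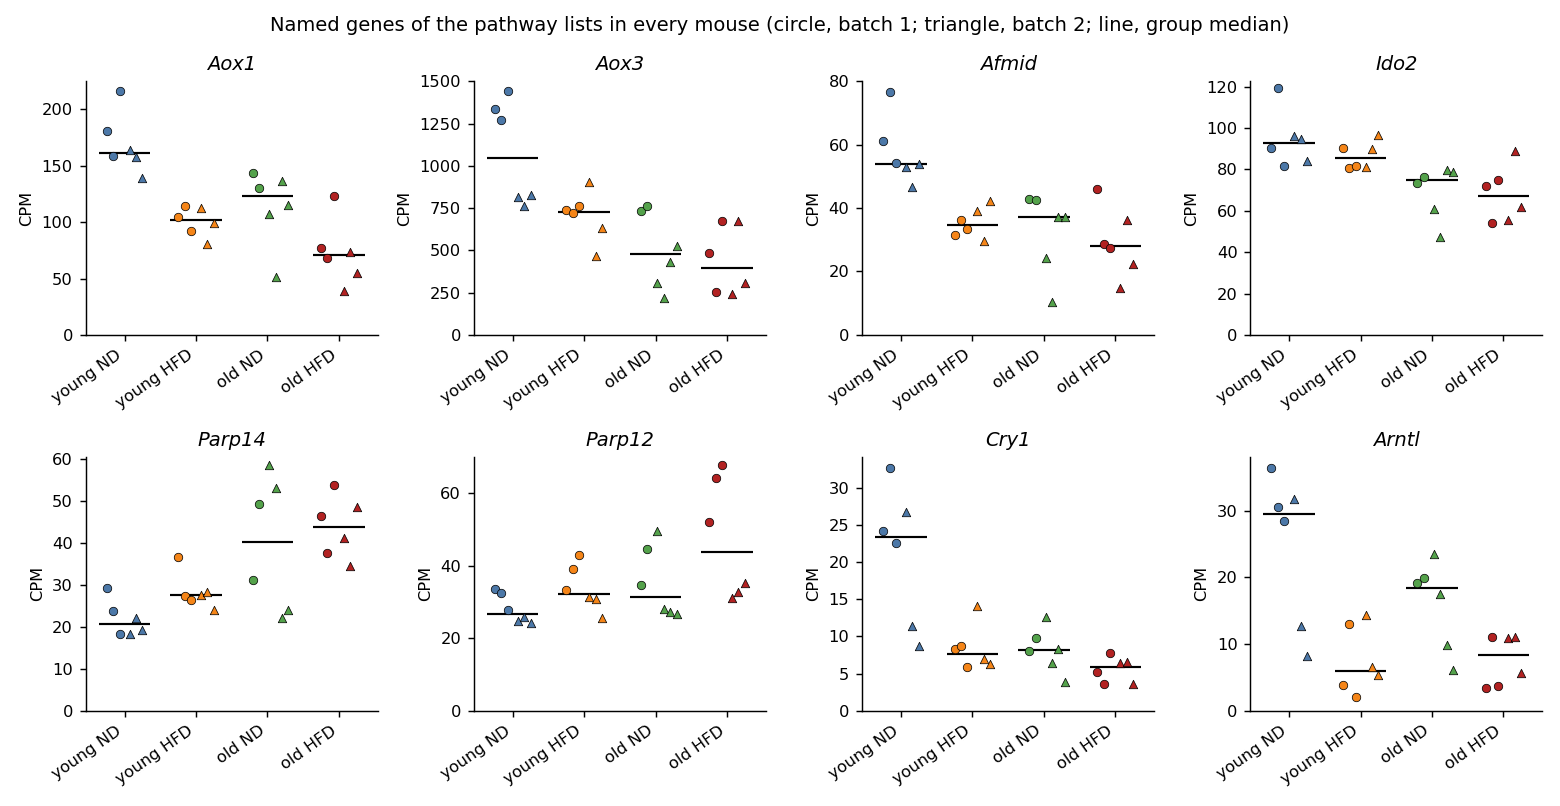
CPM of 8 named genes of the NAD-related lists in every mouse, with batch 1 as circles, batch 2 as triangles and the group median as a line. Aox1 (38.7 to 123 CPM) and Afmid (14.8 to 46.1 CPM) in old HFD lie below all young ND mice (139 to 216 and 46.8 to 76.7 CPM), and Parp14 (34.4 to 53.8 CPM) lies above them (18.3 to 29.1 CPM).

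Smaller groups showed calls in both directions in old HFD against young ND, where 30.2% of all genes were called. Among genes that handle NADP or split the dinucleotides, Nudt13, a mitochondrial hydrolase, rose by 0.59 (adjusted p 0.00439) and Nadk2, the mitochondrial NAD kinase, fell by 0.46 (adjusted p 0.0296). The Nadk2 levels of old HFD replicates 4 and 6 were 95.4 and 101.7 CPM and those of the other 4 mice 177 to 258.7 CPM. Without these replicates the value was -0.25 and not called (adjusted p 0.202). These were the 2 calls among 6 tested genes, and 0 of the 6 were called without old HFD replicates 4 and 6. In the methyl donor cycle, which supplies Nnmt, 1 of 12 rose and 2 fell, and 1 rose and 1 fell without old HFD replicates 4 and 6. Cbs, which draws homocysteine out of the cycle, fell by 0.45 (adjusted p 0.00917). Bhmt, which remethylates homocysteine, rose by 0.98 (adjusted p 0.0314) in old HFD against old ND.

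Of 12 transcriptional partners of the sirtuins, 1 rose and 1 fell in old HFD against young ND. Hnf4a, a master factor of hepatocyte genes that is also in the hepatocyte marker list, fell by 0.73 (adjusted p 0.00534), from a median of 619.7 to 415 CPM, and both HFD groups lay wholly below young ND. Foxo1, a forkhead factor that Sirt1 deacetylates, rose by 0.37 (adjusted p 0.0495). Of 10 tested enzymes that mitochondrial sirtuins deacylate, 1 was called, beside 30.2% of all genes, and it was also called without old HFD replicates 4 and 6. This was Cps1, the entry enzyme of the urea cycle and a Sirt5 target. It fell by 0.92 (SE 0.25, adjusted p 0.00868), from a median of 4058 to 2101 CPM.

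The clock genes, to which the salvage step of NAD is coupled in liver, moved in both directions. Of 14 genes, 3 rose and 4 fell in old HFD against young ND, beside 17.3% and 12.9% of all genes. Without old HFD replicates 4 and 6, 0 rose and 4 fell. Cry1, a repressor of the clock, had 8.72, 23.4 and 32.8 CPM as lowest, median and highest (young ND), 5.87, 7.62 and 14.1 (young HFD), 3.86, 8.17 and 12.6 (old ND), and 3.53, 5.85 and 7.73 (old HFD). It fell by 1.92 (SE 0.31, adjusted p 0.000275) in old HFD, 1.30 (adjusted p 0.0201) in young HFD and 1.32 (adjusted p 0.00951) in old ND, each against young ND.

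Arntl, the activator that pairs with Clock, fell by 1.68 (SE 0.45, adjusted p 0.00868) in old HFD and by 1.70 (SE 0.45, adjusted p 0.0396) in young HFD against young ND. The values were -2.43 in batch 1 and -0.92 in batch 2 for old HFD. Clock itself fell by 0.81 (adjusted p 0.00172) and 0.66 (adjusted p 0.0349) in the same contrasts. The young ND mice spread widely, from 8.19 to 36.4 CPM for Arntl, and the labels do not give the hour at which each mouse was killed. Of the 13 clock genes with a promoter in the RefSeq table, 4 (Ciart, Cry1, Per1 and Tef) held the E-box, as did Sirt1 but not Nampt in the sequences above.

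For each member, the genes with the most similar pattern were those with the smallest mean absolute difference in standardized, batch-centred log2 CPM over the 24 mice, where the median over all genes was 1.0 to 1.09. Nnmt was most like Gm46516 (0.392), Rpain (0.428) and Stard3nl (0.433). Nampt (0.551) and Nmrk1 (0.531) were both nearest to Cyp7a1, the rate-limiting enzyme of bile acid synthesis. Sirt1 was nearest to Pcnt (0.414), Sirt2 to Elmod3 (0.360), Sirt3 to Tmed1 (0.502), Sirt4 to C030006K11Rik (0.474), Sirt5 to Enoph1 (0.421) and Sirt6 to Ctcf (0.603). Sirt7 was nearest to Pcyt2 (0.450), which lies on the same strand at chr11:120610087-120617936, 435 bases past the end of Sirt7 with no gene between them. The likeness of that pair was not tested apart from their position.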

How the data were processed

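Hepatocyte polyA RNA of 24 mice was analysed, with group, replicate number and batch taken from the labels. The authors aligned reads to mm10 (Gencode vM23) with STAR 2.7.3a, filtered them with SAMtools, and deposited unnormalized HTSeq 0.11.2 counts for each gene. A second deposited table holds FPKM values that the authors computed with CuffLinks, adjusted between batches with ComBat. The sources used here do not state how strand or duplicates were treated. The counts were tested here with edgeR 4.0.16 (R 4.3.3): TMM scaling, filterByExpr by group, a model of group and batch over all 24 mice, the quasi-likelihood test, and Benjamini-Hochberg adjustment over all 13583 tested genes at 0.05. The script was tested on simulated counts. Levels are CPM with TMM scaling, and total counts limit the precision for low genes. Nothing in the labels says how cages or litters were shared. The tests treat the mice as independent, which could not be checked. FPKM had been planned for the order of levels, but exon length was used because the FPKM follow gene span. Exon lengths and positions are from GENCODE vM21, which held 55240 of the 55421 gene IDs.

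The members and the gene lists were chosen with earlier results of these data known. Genes named beside the members were, per list, up to 3 called genes with the smallest adjusted p over the 6 comparisons, or the 1 with the smallest where none was called, and the 3 genes most like each member, of which the first is printed for most. A gene that this rule names is not reported here. Ciart, Per1 and Tef were named after the promoter search, and Cd38 and Parp8 after the fits with a mouse left out. Replicate numbers belong to different mice. Alternatives were DESeq2 1.42.0, RLE scaling, no count filter, no batch term, the replicate block, only the mice compared, limma 3.58.1 on log2(FPKM + 1) or log2(FPKM + 0.1), each batch alone, and leaving out each mouse. Leaving out old HFD replicates 4 and 6 together was added after their marker sums were seen. Figures used Python 3.11.15 and matplotlib 3.10.9.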

Additional observations from a re-analysis of the deposited data

Results flagged for a closer look

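A mouse stood far from the other 5 of its group (by Dixon's gap-to-range test on log2 CPM) in 7 of 124 groups examined, and 3 of these were among the 40 groups of the members. Chance alone marks about 1 group in 20. Nnmt in old HFD replicate 2 was 443 CPM, and the next mouse had 157 CPM. Sirt5 in the same mouse was 28.4 CPM, and the next had 16.5 CPM. Sirt6 in young ND replicate 3 was 0.663 CPM, below the next at 1.39 CPM.

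Among the other NAD-related genes, Aox1 in old ND replicate 4 was 50.9 CPM and the next mouse 107 CPM. Nudt13 in young ND replicate 3 was 7.23 CPM and the next 8.65 CPM. Hnf4a was 379 CPM in young HFD replicate 5, with the next at 451 CPM, and 365 CPM in old ND replicate 3, with the next at 488 CPM.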

How the results depend on the processing

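The number of members called moved with the setting through Nnmt and, on leaving out a mouse, Sirt2. It went from 0 to 1 without the count filter in young HFD against young ND, old HFD against old ND, old ND against young ND and old HFD against young HFD, with DESeq2 in the old HFD against old ND and old HFD against young HFD contrasts, with only the mice compared in young HFD against young ND, and in old HFD against old ND without old HFD replicates 4 and 6, a setting chosen after the data were seen. In old HFD against young ND it went from 1 to 0 in batch 2 alone. On leaving out each mouse in turn it was 0 to 1 in young HFD against young ND (1 without old HFD replicate 2), 0 to 1 in old HFD against old ND (1 without old ND replicate 4) and 1 to 2 in old HFD against young ND (2 without old HFD replicate 1 or 5). The cause was not tested.

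Of 650 log2 fold changes of members under other settings, 592 kept their sign and their side of the threshold, 49 changed sign, 8 became called and 1 (Nnmt in batch 2) lost its call. Of 1440 values with a mouse left out, 1380 kept both, 56 changed sign and 4 became called. None of the values that changed sign was called, and all were within 0.287 of 0 in the reported fit.

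In batch 1 alone the sign changed for Sirt2 (-0.13) and Sirt5 (0.048) in young HFD against young ND, Sirt3 (-0.16) in old HFD against old ND, Sirt7 (-0.030) and Nampt (-0.049) in old ND against young ND, Sirt1 (0.036) and Sirt3 (-0.17) in old HFD against young HFD, Sirt3 (-0.28) and Sirt4 (-0.025) in old HFD against young ND, and for the difference of diet effects in Sirt1 (0.00026), Sirt2 (0.024), Sirt3 (-0.043) and Sirt4 (-0.092). In batch 2 alone it changed for Sirt1 (0.093), Sirt3 (0.026), Sirt6 (-0.074) and Nampt (-0.0061) in young HFD against young ND, Sirt7 (0.11) and Nampt (-0.16) in old HFD against old ND, Sirt7 (0.14) and Nmrk1 (0.21) in old HFD against young HFD, Sirt7 (0.16) in old HFD against young ND, and the difference of diet effects in Sirt7 (0.084), Nampt (-0.15) and Nnmt (-0.37).

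In old HFD against young ND the sign also changed for Sirt7 with DESeq2 (0.0038) and RLE scaling (0.0027), for Sirt3 (-0.046) and Sirt4 (-0.019) without the count filter, for Sirt4 with limma on log2(FPKM + 1) (-0.0028), and for Sirt3 (-0.0043) and Sirt4 (-0.0078) with a pseudocount of 0.1. In old ND against young ND it changed for Sirt7 without the filter (-0.0086) and with limma (-0.026 and -0.032), and in young HFD against young ND for Sirt5 with limma (0.0020 and 0.016). Without old HFD replicates 4 and 6 it changed for Sirt2 (-0.0027) in young HFD against young ND, Sirt2 (0.012) and Nmrk1 (-0.029) in old HFD against old ND, Sirt7 (-0.0098) in old ND against young ND, Sirt3 (-0.12) and Sirt6 (0.0091) in old HFD against young HFD, Sirt3 (-0.19), Sirt4 (-0.058) and Sirt6 (0.047) in old HFD against young ND, and Sirt2 (0.015) for the difference of diet effects.

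The replicate numbers do not pair the mice: of 36 same-numbered pairs across groups, 21 had a correlation of deviations above 0.1, with a mean of 0.18 and -0.0020 once batch was removed. Under the replicate block, which left out batch, 0, 0, 0, 0 and 1 members were called in the 5 contrasts, as without it, and the sign changed for Sirt6 in young HFD against young ND (-0.025) and Sirt3 in old HFD against young ND (-0.00061). For Nnmt in old HFD against young ND the block gave 1.52 (adjusted p 0.00304).

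Leaving out each mouse in turn, log2 fold changes that changed sign ranged as follows. In young HFD against young ND they were -0.030 to 0.068 (Sirt2), -0.12 to 0.020 (Sirt3), -0.14 to 0.056 (Sirt5), -0.11 to 0.16 (Sirt6) and -0.0013 to 0.11 (Sirt7). In old HFD against old ND they were -0.13 to 0.046 (Sirt7) and -0.016 to 0.25 (Nmrk1), and in old ND against young ND -0.24 to 0.026 (Sirt5) and -0.050 to 0.082 (Sirt7). In old HFD against young HFD they were -0.10 to 0.046 (Sirt1), -0.053 to 0.13 (Sirt3), -0.16 to 0.028 (Sirt7), -0.0086 to 0.31 (Nampt) and -0.32 to 0.11 (Nmrk1). In old HFD against young ND they were -0.076 to 0.10 (Sirt3), -0.033 to 0.12 (Sirt4) and -0.13 to 0.061 (Sirt7). For the difference of diet effects they were -0.17 to 0.013 (Sirt7), -0.14 to 0.19 (Nampt) and -0.16 to 0.56 (Nnmt).

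Of the other NAD-related genes, the calls in old HFD against young ND were 31, and 19 to 32 with a mouse left out (19 without young ND replicate 4), 20 with no batch term or only the mice compared, 19 with either limma fit, 14 in batch 1, 1 in batch 2 and 15 without old HFD replicates 4 and 6. In young HFD against young ND they were 5, with 0 to 12 on leaving out a mouse (0 to 3 without young ND replicates 1 to 5 or young HFD replicates 1, 3, 5 or 6, and 9 to 12 without young HFD replicate 4, old ND replicate 4 or old HFD replicate 2), 30 with only the mice compared, 25 without the count filter, 14 with DESeq2, 2 with no batch term, 1 with either limma fit, 3 in batch 1 and 0 in batch 2. In old ND against young ND they were 7, with 3 to 15 (3 to 4 without young ND replicate 1, 2, 4, 5 or 6 or old ND replicate 2 or 4, and 13 to 15 without old ND replicate 5 or old HFD replicate 2 or 4), 16 with DESeq2, 13 with the replicate block, 21 without the count filter, 4 with no batch term, 0 and 1 with limma on log2(FPKM + 1) and log2(FPKM + 0.1), 1 in batch 1, 0 in batch 2 and 20 without old HFD replicates 4 and 6. Old HFD against old ND had 2, with 0 to 3 (0 to 1 without 15 of the mice, 0 without old ND replicate 1, 2 or 6), 7 with DESeq2, 10 without the count filter, 6 without old HFD replicates 4 and 6, 1 with the replicate block, and 0 with no batch term, only the mice compared, either limma fit or either batch alone. Between old HFD and young HFD they were 0, with 0 to 6 (1 to 6 without old ND replicate 1 or 3 or old HFD replicate 1, 3 or 5), 4 with DESeq2 and 8 without the count filter. For the difference of diet effects they were 0, and 6 without the count filter, where 587 of all genes were called. Over all genes the calls were 475, 409, 1155, 304 and 4100 in young HFD against young ND, old HFD against old ND, old ND against young ND, old HFD against young HFD and old HFD against young ND, 1255, 1137, 1676, 859 and 4675 with DESeq2, 1473, 1108, 2053, 1235 and 4623 without the count filter, and 167, 199, 47, 36 and 2279 with limma on log2(FPKM + 1). With only the mice compared they were 2302 in young HFD against young ND, 15 in old HFD against old ND, 48 in old HFD against young HFD and 2094 in old HFD against young ND. The order of levels differed between exon length and FPKM as given in the report.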
